A study of Mus musculus with 5 samples.

Results

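The genes described here encode the enzymes that change drugs, carcinogens and other foreign compounds, and many of the body's own small molecules, in colon tumors of mice. Members were chosen by name and by measured level: the symbol had to belong to the cytochrome P450 (Cyp), UDP-glucuronosyltransferase (Ugt), cytosolic sulfotransferase (Sult) or glutathione transferase (Gst) family, and the abundance had to reach a TPM of 1 in at least 2 of the 5 tumors, TPM being a measure of transcripts relative to all RNA of a sample. The name rule held for 166 distinct symbols among the 52143 genes of the table, and 49 of these met the level rule as well, within the 10338 genes that did so in all. The 49 detected genes comprised 21 of 101 Cyp, 5 of 22 Ugt, 5 of 21 Sult and 18 of 22 Gst symbols. All levels are the deposited log2(TPM + 1) unless stated, a scale that is relative to all other RNA of the tumor and to transcript length.

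Both groups carried Villin1-Cre-ERT, a Cre recombinase driven by the villin promoter of the gut epithelium that acts once tamoxifen is given. Control mice were littermates without the knock-in, and SIGLEC12 mice carried in addition 1 knock-in allele of the human SIGLEC12 coding sequence at ROSA26, behind the CAG promoter and an EGFP stop cassette that the recombinase removes. SIGLEC12 encodes Siglec-XII, a protein of epithelial cells from the Siglec family of sialic acid receptors, and mice lack the gene. According to the study, the human protein cannot bind sialic acids because of a mutation that all humans share. All mice were females of 8 weeks at the start and received tamoxifen (10 mg/ml) for 5 days, azoxymethane (AOM, a colon carcinogen) at 10 mg/kg, and then 4 cycles of DSS, a sulfated dextran that inflames the colon, at 2.0% for 5 days with 14 days of recovery. Tumors were taken on day 87, and 2 Control tumors (replicates 1 and 4) and 3 SIGLEC12 tumors (replicates 2, 3 and 4) were analysed. The human transgene was not analysed here, so the knock-in was not checked. The tumors were bulk pieces, in which more cells of a type and more RNA per cell cannot be told apart.

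Foreign compounds are handled in steps. P450 enzymes add or uncover a reactive group by oxidation (phase I), and Ugt, Sult and Gst enzymes then attach glucuronic acid, sulfate or glutathione (phase II), which makes the product soluble and lets transporters export it. AOM is itself a compound of this kind, since it becomes a DNA-alkylating agent only after oxidation, in which the P450 Cyp2e1, found mainly in liver, takes a leading part. Many of these genes answer to ligand-activated receptors, such as the aryl hydrocarbon receptor (AHR) and PXR, or to the stress factor NRF2.

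The 250 bases before the annotated start are shown for the 3 pi-class glutathione transferases, which lie side by side, and for the mu-class gene Gstm5, because these 4 are among the 5 members with the largest difference between groups. Gstp3 met the level rule through the SIGLEC12 tumors alone, so it had to be higher there. The sequences are from RefSeq (GRCm38.p6), read 5′ to 3′ on the gene's own strand. Capitals mark the AHR core GCGTG, the NRF2 element core TGACNNNGC and the AP-1 site TGAGTCA, each searched on both strands, with AP-1 added after the sequences had been read. The windows are chr19:4037913-4038162 (minus strand) for Gstp1, chr19:4042222-4042471 (minus) for Gstp2, chr19:4059448-4059697 (minus) for Gstp3 and chr3:107895604-107895853 (plus) for Gstm5.
Gstp1: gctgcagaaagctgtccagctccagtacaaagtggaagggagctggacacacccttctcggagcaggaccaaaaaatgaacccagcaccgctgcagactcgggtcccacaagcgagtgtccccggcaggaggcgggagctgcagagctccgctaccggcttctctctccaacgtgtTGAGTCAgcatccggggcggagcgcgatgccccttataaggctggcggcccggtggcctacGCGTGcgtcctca
Gstp2: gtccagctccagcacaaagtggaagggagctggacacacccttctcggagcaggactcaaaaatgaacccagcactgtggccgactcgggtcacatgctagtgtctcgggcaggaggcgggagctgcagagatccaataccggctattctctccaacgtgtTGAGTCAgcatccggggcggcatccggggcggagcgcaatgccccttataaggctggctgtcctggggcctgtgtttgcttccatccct
Gstp3: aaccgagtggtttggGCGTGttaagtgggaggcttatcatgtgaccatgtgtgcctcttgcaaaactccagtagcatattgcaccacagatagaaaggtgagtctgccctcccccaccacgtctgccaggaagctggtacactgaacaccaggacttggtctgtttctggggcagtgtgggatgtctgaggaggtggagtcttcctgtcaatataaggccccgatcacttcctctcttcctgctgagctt
Gstm5: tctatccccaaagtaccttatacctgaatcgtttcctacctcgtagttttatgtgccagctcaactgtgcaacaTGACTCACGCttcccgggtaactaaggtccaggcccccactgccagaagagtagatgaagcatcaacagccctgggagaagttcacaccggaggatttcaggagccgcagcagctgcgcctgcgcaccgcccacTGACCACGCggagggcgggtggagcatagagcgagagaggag

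The Gstp1 and Gstp2 windows were close relatives and shared an unbroken run of 43 bases, and 30.1% of the 15-base words of Gstp1 were also in Gstp2. Both hold the AP-1 letters, 74 bases before the start in Gstp1 and 89 in Gstp2. Gstp3, the neighbour of both, shared no 15-base word with either, and its window held neither the AP-1 site nor the NRF2 core as searched. Only the form TGACNNNGC of the NRF2 core was searched, so other forms were not counted in any window. Gstm5 held the NRF2 core 42 bases before its start, overlapped by an AHR core on the other strand, and an AP-1 site whose last bases run into a further AHR core. RefSeq promoters were found for 44 of the 49 members, 56 promoters in all. The AHR core was in 25.0% of them and in 28.2% of all 32851 promoters, the NRF2 core in 7.14% and 10.2%, the TATA box TATAAA in 12.5% and 12.4%, and the AP-1 site in 10.7% and 4.46%. The AP-1 share rests on 6 member promoters, those of Cyp3a13, Cyp4f16, Gstm5, Gstp1, Gstp2 and Sult2b1. Those of Gstm5, Gstp1 and Gstp2 are printed above and had been read before AP-1 was added, and the Gstp1 and Gstp2 windows are close relatives. The AP-1 share is therefore no measure of an excess over all promoters. These counts describe letters and were not tested.

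One glutathione transferase outweighed all other members. Gsto1, the omega-class enzyme that uses glutathione to reduce dehydroascorbate and mixed disulfides, stood at 8.26 and 8.51 in Control replicates 1 and 4 and at 8.83, 8.21 and 7.25 in SIGLEC12 replicates 2, 3 and 4. In TPM it ranged from 151 in SIGLEC12 replicate 4 to 455 in SIGLEC12 replicate 2. The Control tumors were at 304 and 363 TPM and SIGLEC12 replicate 3 at 295 TPM. Gsto1 made up 74.0% and 77.3% of all Gst transcripts in the Control tumors and 75.7%, 69.9% and 53.1% in the SIGLEC12 tumors. Gsta4, which conjugates the lipid peroxidation product 4-hydroxynonenal, was the next most abundant member, at 5.90 and 5.34 in the Control tumors and at 5.72, 5.44 and 5.20 in the SIGLEC12 tumors. The 49 genes then dropped off steeply: 7 had a mean of at least 10 TPM, 28 a mean under 3 TPM, and the median over members was 2.61 TPM.

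**Figure D1:**
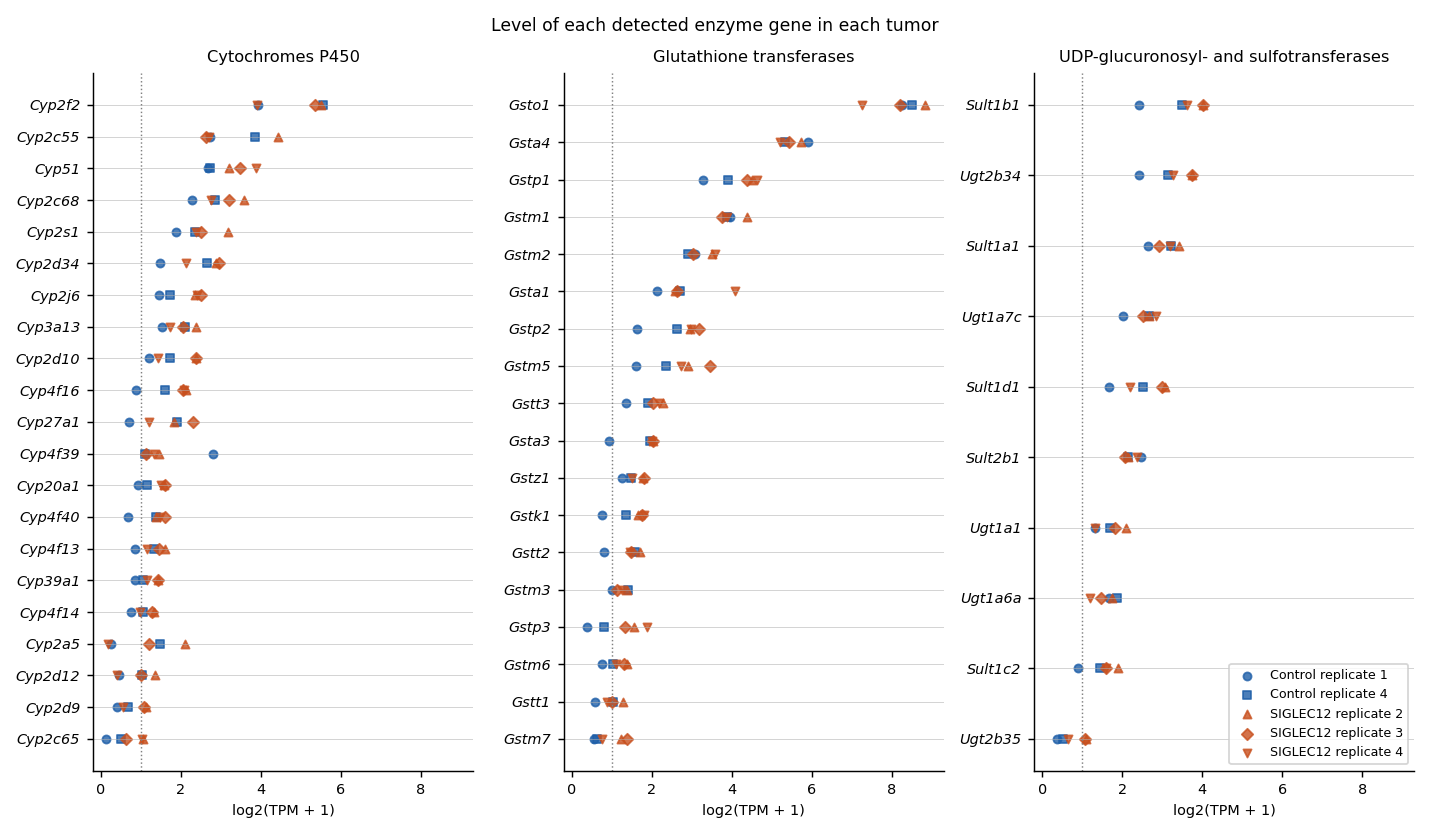
Level of each of the 49 detected genes in each tumor, as log2(TPM + 1) on the horizontal axis, with blue symbols for the 2 Control and orange symbols for the 3 SIGLEC12 tumors and a dotted line at a TPM of 1. Gsto1 and Gsta4 stand apart at the top of the glutathione transferases, and Control replicate 1 (blue circle) is the lowest point for 38 of the 49 genes.

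Most of the name list was not detected. The 80 undetected Cyp genes included 59 that stayed under 0.1 TPM in every tumor, as did 12 of 17 undetected Ugt and 14 of 16 undetected Sult genes, but 1 of 4 undetected Gst genes. The AHR target Cyp1a1 was highest at 0.15 on the log2(TPM + 1) scale, and its relative Cyp1b1 at 0.093. Cyp2e1, the AOM-oxidising enzyme, lay at 0.15 and 0.029 in Control and at 0.028, 0.099 and 0.011 in SIGLEC12. Cyp3a11, the main drug-oxidising P450 of mouse liver, was at most 0.0060. These and the other undetected genes named were picked after their values were seen. The genes just inside the level rule were Cyp2d12, Cyp2c65 and Gstt1, with a second-highest tumor at 1.03, 1.03 and 1.04 TPM, and those just outside were Cyp4v3, Gsta2 and Gstm4, at 0.990, 0.922 and 0.885 TPM.

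Detection itself differed among the tumors. A TPM of at least 1 was reached by 29 members in Control replicate 1 and 44 in Control replicate 4, and by 49, 47 and 42 in SIGLEC12 replicates 2, 3 and 4. All 5 tumors reached it for 29 members. Cyp2c65, Cyp2d9, Gstm7, Gstp3 and Ugt2b35 reached it in neither Control tumor and met the level rule through SIGLEC12 alone. These 5 therefore had to be higher in at least 2 SIGLEC12 tumors than in both Control tumors. Among all genes, 7947 and 9532 genes reached 1 TPM in the Control tumors and 9837 to 10090 in the SIGLEC12 tumors, and protein-coding genes took 5.70% and 6.73% of all TPM in Control and 8.75% to 9.72% in SIGLEC12. Member differences are therefore also given after each tumor was rescaled to the same protein-coding total.

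Of the 49 members, 43 were higher in SIGLEC12 (87.8%), as were 87.2% of all genes tested. No member had an adjusted p under 0.05 (limma, Benjamini-Hochberg over all 10338 genes), nor did any gene of the table (0%), the lowest value being 0.0974. Before adjustment, 13 members had a p of at most 0.05 and were higher in SIGLEC12 (26.5%, against 33.4% of all genes tested) and 0 lower (0.909% of all genes). The SIGLEC12 tumors lay entirely above the Control tumors for 21 members (42.9%, against 54.1% of all genes) and entirely below for 0 (1.67% of all genes). The median log2 difference over the members was 0.46, beside 0.38 over all genes. When a 2-fold change was required beside that unadjusted limit, 1 member was higher, Gstm5 (2.04%, against 3.97% of all genes), and 0 were lower (0.445% of all genes). Each share of members called before adjustment or without overlap was below the share over all genes. Among the 5 genes that met the level rule through SIGLEC12 alone, which had to be higher, 4 counted toward the 21 above and 2, Cyp2c65 and Gstp3, toward the 13.

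The lean shrank once the protein-coding totals were set equal. Then 33 members were higher (67.3%, against 51.1% of all genes) and 16 lower, the median was 0.14 (0.0085 over all genes), 6 members lay above without overlap (12.2%, against 15.6% of all genes) and 4 below (8.16%, against 16.8%). The 6 above were Cyp2j6, Cyp4f16, Cyp20a1, Gstk1, Gstp1 and Gstp3, of which Gstp3 had met the level rule through SIGLEC12 alone, and the 4 below were Gsto1, Gsta4, Sult2b1 and Ugt1a6a. By the unadjusted limit, Cyp2j6 and, subject to the same limit, Gstp3 were higher (4.08%, against 4.45% of all genes) and Ugt1a6a and Sult2b1 lower (4.08%, against 6.31%). No adjusted p was under 0.457 among the members on that scale.

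**Figure D2:**
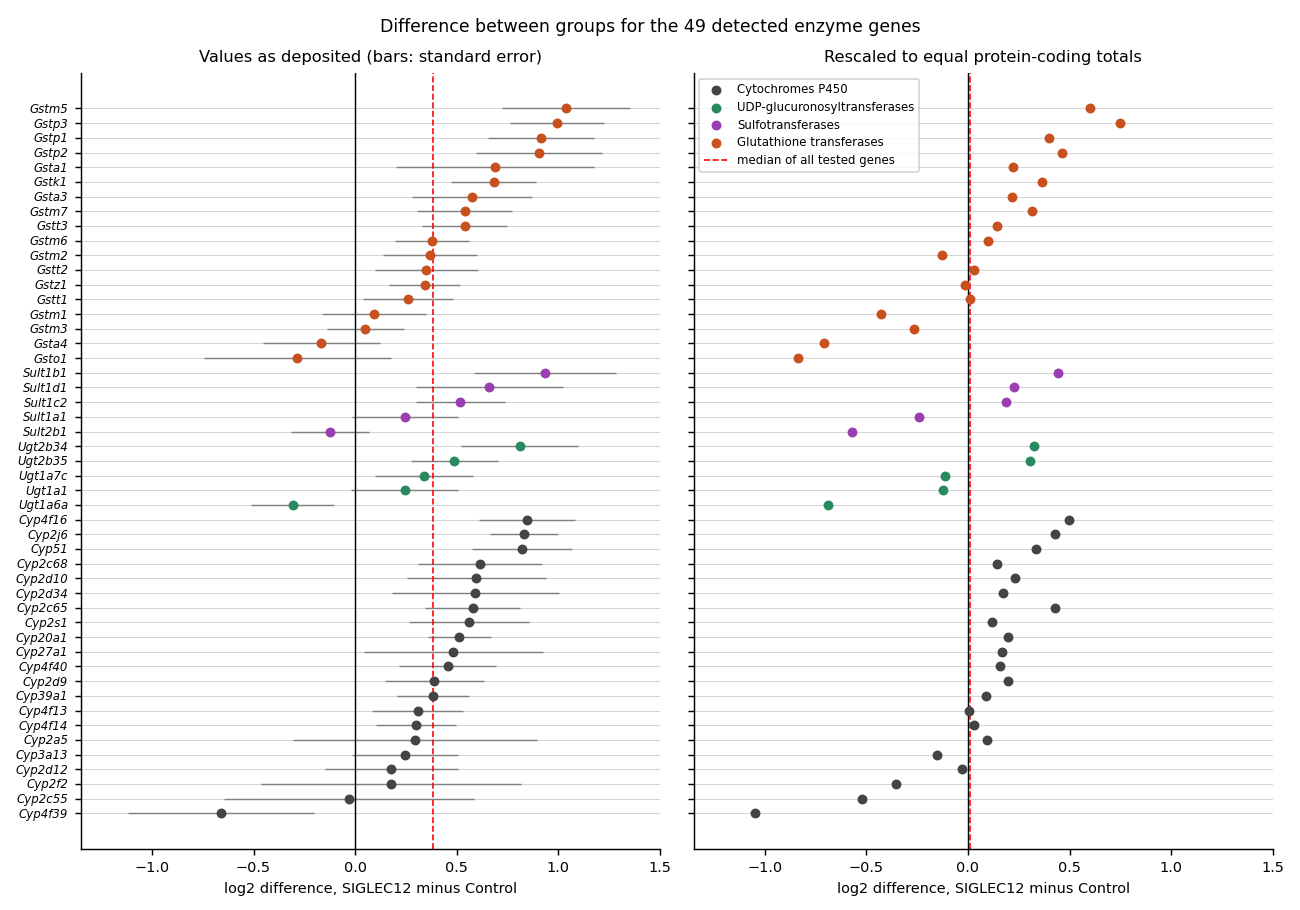
Log2 difference, SIGLEC12 minus Control, for each of the 49 genes by family, with values as deposited on the left (bars are standard errors of the limma fit, 2 Control against 3 SIGLEC12 tumors) and after rescaling to equal protein-coding totals on the right. The red dashed line is the median of all 10338 tested genes, at 0.38 on the left and 0.0085 on the right, and on the left Gstm5 is highest at 1.04 and Cyp4f39 lowest at -0.66.

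Control replicate 1 stood apart. It was the lowest of the 5 tumors for 38 members and lay below Control replicate 4 for all but 5, Cyp4f39, Gsta4, Gstm1, Gstm2 and Sult2b1. The median gap between the 2 Control tumors was 0.52 over the members and 0.27 over all genes. Without that tumor 37 members were higher (75.5%, against 79.4% of all genes) and 12 lower, the median difference was 0.23 (0.26 over all genes), and 4 were higher by the unadjusted limit (8.16%, against 13.9%), Cyp2j6, Cyp4f16, Cyp51 and Gstp3. Without Control replicate 4, 13 members had an adjusted p under 0.05 (26.5%, against 15.5% of all genes), and 9 of them also differed by at least 2-fold (18.4%, against 10.2%). These 9 were Ugt2b34, Sult1b1, Gstp1, Gstp2, Gstp3, Gstm5, Gsta3 and Cyp4f16, all higher in SIGLEC12, and Cyp4f39, lower. The other 4, under 2-fold and higher, were Cyp2j6, Cyp4f40, Gstk1 and Gstt3. That fit has 1 Control tumor, which is assumed to vary like the others. Gstp3, named both without Control replicate 1 and without Control replicate 4, met the level rule through SIGLEC12 alone and had to be higher there. The shares of members in these fits include it and therefore measure no excess over all genes.

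Cell type markers separated the tumors too. The summed TPM of 12 columnar epithelial markers, such as Epcam, Krt8 and Lgals4, was 333 and 965 in Control and 1202, 1189 and 1830 in SIGLEC12. Of the 11 tested, 9 lay above without overlap (81.8%, against 54.1% of all genes), and 4 after rescaling (against 15.6% of all genes). The 12 squamous markers, such as Krt5, Krt13 and Krt14, summed to 3027 and 644 in Control and 1148, 429 and 634 in SIGLEC12. Control replicate 1 was the lowest tumor for all 12 columnar markers and the highest for 8 of the 12 squamous ones, and its squamous sum was carried by keratins such as Krt14 and Krt5. Krt4 and Lor were lowest there, at 4.30 and 0.21, Krt13 was highest in SIGLEC12 replicate 2 and Sprr3 in SIGLEC12 replicate 4. Fibroblast markers summed to 8.71 and 10.5 in Control and 57.9, 17.98 and 24.4 in SIGLEC12, and myeloid markers to 11.5 and 4.75 in Control and 21.9, 23.8 and 5.63 in SIGLEC12. Of the other lists, smooth muscle had a summed TPM of 45.3 to 112. Of its 6 tested genes, 2 lay above without overlap (33.3%, against 54.1% of all genes), and 0 after rescaling (against 15.6%). No endothelial, B and plasma cell, T cell or adipocyte marker was tested, their sums staying at or below 4.26 TPM. Of 6 hepatocyte markers, 2 were tested, albumin and Ttr. Albumin was at 0.028 and 0.064 in Control and at 1.83, 2.09 and 0.21 in SIGLEC12. Ttr was at 1.35 and 1.70 in Control and at 2.58, 2.29 and 2.35 in SIGLEC12. Cyp3a11 was near 0 throughout. The part of cell make-up in the enzyme differences was not tested.

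**Figure D3:**
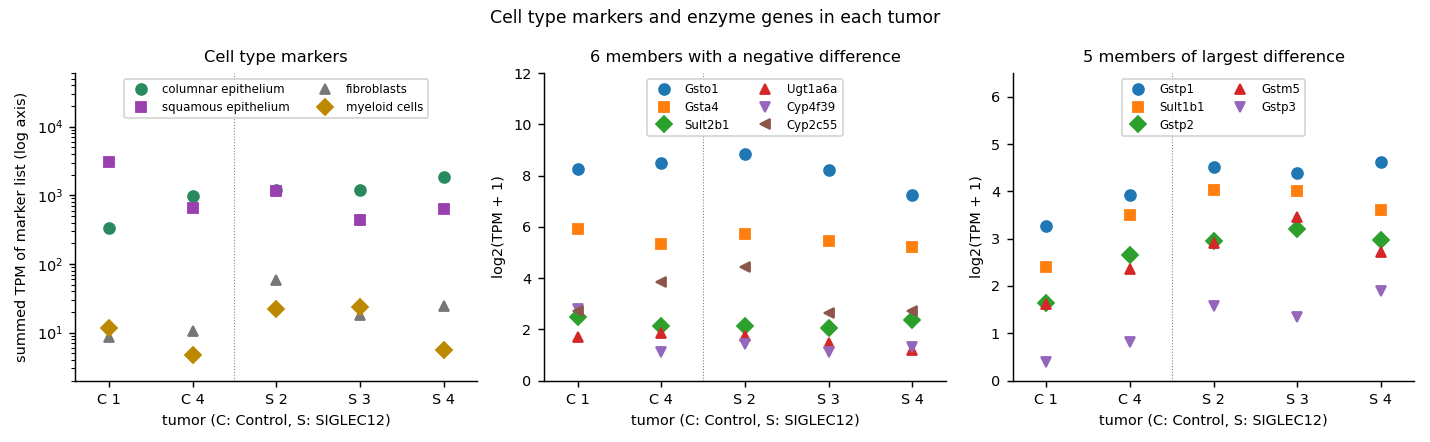
Summed TPM of 4 marker lists on a log axis (left), and the log2(TPM + 1) of the 6 members with a negative difference (middle) and of the 5 with the largest positive one (right), in each tumor (C, Control; S, SIGLEC12). Columnar markers run from 333 in Control replicate 1 to 1830 in SIGLEC12 replicate 4, Cyp4f39 is high in Control replicate 1 alone, and all 5 genes on the right have their lowest point there.

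Among the P450 genes, 19 of 21 had a positive difference, 7 lay above in SIGLEC12 without overlap (33.3%, against 54.1% of all genes) and 5 had an unadjusted p of at most 0.05 (23.8%, against 33.4%). These 5 were Cyp2j6, Cyp4f16, Cyp51, Cyp20a1 and Cyp2c65, the last of which met the level rule through SIGLEC12 alone. The median over the family was 0.46, and the summed TPM of all 101 Cyp genes was 53.7 and 109 in Control and 142, 115 and 75.1 in SIGLEC12 (exact permutation p = 0.4, two-sided, where 0.1 is the smallest the design allows).

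Cyp2f2, known as the naphthalene-oxidising P450 of the airway, was the most abundant. It stood at 3.92 and 5.55 in Control and at 5.49, 5.35 and 3.90 in SIGLEC12. The groups overlapped fully, with 1 low tumor in each group, and the difference was 0.18 ± 0.64 (SE, adjusted p = 0.842). Cyp2f2 made up 26.4% and 42.1% of the P450 total in Control and 30.95%, 34.5% and 18.6% in SIGLEC12.

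Cyp2c55, a P450 of the colon that hydroxylates fatty acids, was at 2.73 and 3.85 in Control and at 4.43, 2.63 and 2.71 in SIGLEC12. One tumor of each group stood above the rest, and the difference was -0.030 ± 0.61. Cyp2a5, which oxidises coumarin and nicotine, varied more than any other P450 within SIGLEC12, from 0.18 in replicate 4 to 2.10 in replicate 2, and was at 0.25 and 1.49 in Control. Cyp2f2, Cyp2c55, Cyp2a5, Cyp27a1, Gsto1 and Gsta1 were the 6 members that ranged over 1 or more log2 units within SIGLEC12, and 9 did so within Control.

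Cyp51 makes sterols rather than clearing foreign compounds, as the lanosterol demethylase of cholesterol synthesis. It was at 2.68 and 2.72 in Control and at 3.20, 3.48 and 3.88 in SIGLEC12. Every SIGLEC12 tumor was above both Control tumors, which were nearly equal, and the difference was 0.82 ± 0.25 (SE; unadjusted p = 0.0141, adjusted p = 0.101). It was 0.80 without Control replicate 1 and 0.33 after rescaling, with overlap.

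Further P450 genes are named after their values were seen. Cyp2j6, an epoxygenase of arachidonic acid, had the smallest p of all members. It was at 1.44 and 1.72 in Control and at 2.34, 2.50 and 2.40 in SIGLEC12, so that the SIGLEC12 tumors lay within 0.16 of each other and above Control. The difference of 0.83 ± 0.17 had an adjusted p of 0.0974, and was 0.69 without Control replicate 1 and 0.43 after rescaling. Cyp4f16 was at 0.88 and 1.61 in Control and at 2.13, 2.05 and 2.08 in SIGLEC12, a difference of 0.84 ± 0.23. Its neighbours Cyp4f13, Cyp4f14 and Cyp4f40, of the same cluster of fatty acid hydroxylases, differed by 0.31, 0.30 and 0.46 with overlapping groups.

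Cyp4f39, in the same cluster, went the other way. It belongs to the P450s that hydroxylate very long fatty acids for the lipids of the skin barrier. It was at 2.80 in Control replicate 1 and 1.11 in Control replicate 4, and at 1.44, 1.12 and 1.32 in SIGLEC12. Control replicate 1 alone was high, and the other 4 tumors were alike. The difference was -0.66 ± 0.46 (adjusted p = 0.311), 0.18 with Control replicate 1 left out and -1.50 with Control replicate 4 left out.

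The Cyp2d genes on chromosome 15 (Cyp2d9, Cyp2d10, Cyp2d12 and Cyp2d34) had differences between 0.18 and 0.60, all with overlap. Cyp2c68 differed by 0.61, Cyp2s1, an epithelial P450 that answers to AHR, by 0.56, and Cyp3a13, of the drug-oxidising 3A group, by 0.25. The sterol enzymes differed as well, Cyp27a1, a mitochondrial 27-hydroxylase, by 0.48 ± 0.44 and Cyp39a1, an oxysterol 7-hydroxylase, by 0.38 ± 0.18. None of these reached an unadjusted p of 0.05.

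Of the 5 glucuronosyltransferases, 4 had a positive difference and 1 had an unadjusted p of at most 0.05 (against 33.4% of all genes), with a median of 0.34 that became -0.11 after rescaling. Ugt2b34 led them, at 2.42 and 3.14 in Control and at 3.75, 3.75 and 3.28 in SIGLEC12. The groups did not overlap, with SIGLEC12 replicate 4 close above Control replicate 4, and the difference was 0.81 ± 0.29 (adjusted p = 0.116), 0.45 without Control replicate 1 and 0.33 after rescaling. Ugt2b35, beside it on chromosome 5, differed by 0.49 at a level of at most 1.12 TPM, having met the level rule through SIGLEC12 alone.

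The 3 Ugt1a genes are variants of 1 locus on chromosome 1, with first exons of their own and shared later exons. Ugt1a7c was at 2.02 and 2.66 in Control and at 2.67, 2.51 and 2.85 in SIGLEC12. Ugt1a1, the bilirubin-conjugating form, was at 1.31 and 1.71 in Control and at 2.10, 1.82 and 1.33 in SIGLEC12. Both overlapped between groups, with differences of 0.34 ± 0.24 and 0.24 ± 0.26. Ugt1a6a, which conjugates phenols, was at 1.68 and 1.87 in Control and at 1.74, 1.47 and 1.20 in SIGLEC12, a difference of -0.31 ± 0.20. After rescaling, its difference was -0.69 without overlap, so members of 1 locus stood on different sides of 0 on the deposited scale and all below 0 on the rescaled one.

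Summed over all 22 Ugt genes, the TPM was 12.3 and 20.8 in Control and 25.6, 23.3 and 19.8 in SIGLEC12 (exact permutation p = 0.2). The sum over 21 Sult genes was 17.3 and 28.8 in Control and 38.8, 33.8 and 29.5 in SIGLEC12, which did not overlap (exact permutation p = 0.1). Rescaled to the protein-coding total the log2 ratio went from 0.60 to 0.045 (exact permutation p = 0.8).

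Sult1b1, an intestinal sulfotransferase of phenols and thyroid hormone, was the most abundant of its family. It was at 2.41 and 3.49 in Control and at 4.03, 4.01 and 3.61 in SIGLEC12. All SIGLEC12 tumors lay above, with SIGLEC12 replicate 4 near Control replicate 4, and the difference was 0.93 ± 0.35 (adjusted p = 0.124). It came to 0.39 without Control replicate 1 and 0.44 after rescaling. Sult1d1, beside it on chromosome 5, conjugates catecholamines and was at 1.67 and 2.52 in Control and at 3.07, 2.98 and 2.20 in SIGLEC12, with overlap.

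Sult1a1, the phenol sulfotransferase, was at 2.64 and 3.23 in Control and at 3.43, 2.91 and 3.20 in SIGLEC12, a difference of 0.24 ± 0.26 that turned to -0.24 after rescaling. Sult1c2 differed by 0.52 ± 0.22 without overlap. Sult2b1, the cholesterol sulfotransferase of keratinising epithelium, was at 2.48 and 2.15 in Control and at 2.13, 2.06 and 2.38 in SIGLEC12. Its difference of -0.12 ± 0.19 was smaller than its error, and after rescaling it was -0.57 with every SIGLEC12 tumor below Control.

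**Figure D4:**
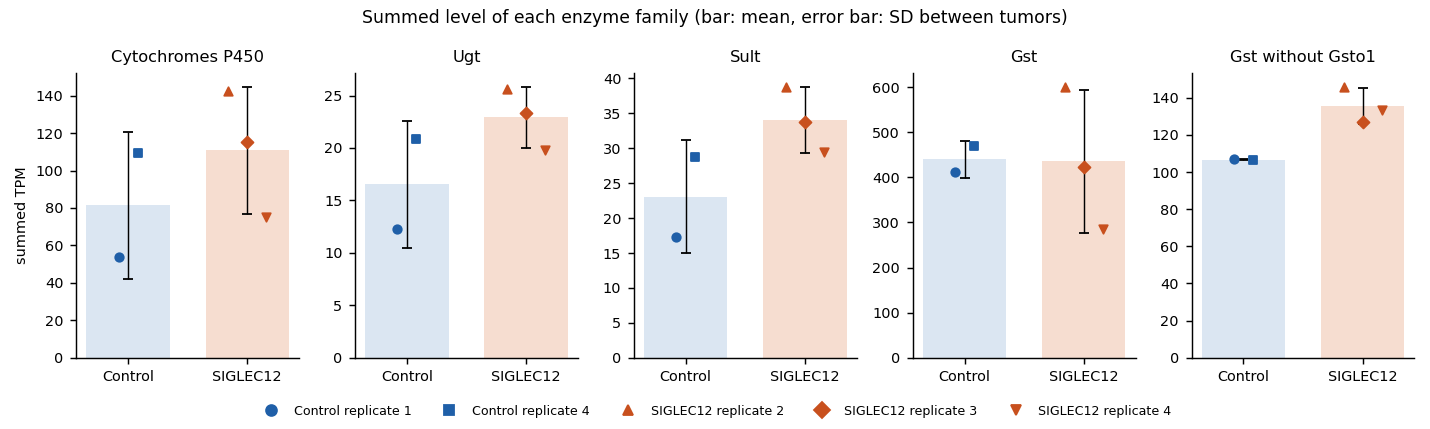
Summed TPM of all genes of each enzyme family in each tumor, detected or not, with bars for the group mean and error bars for the SD between tumors (2 Control, 3 SIGLEC12). The Gst sum ranges from 285 to 601 within SIGLEC12, and without Gsto1 it is near 107 in both Control tumors and between 127 and 146 in the SIGLEC12 tumors.

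The glutathione transferases held 4 of the 5 largest differences. Of 18, 16 had a positive difference and 10 lay above in SIGLEC12 without overlap (55.6%, against 54.1% of all genes). An unadjusted p of at most 0.05 was reached by 6 (33.3%, against 33.4%), namely Gstp1, Gstp2, Gstp3, Gstm5, Gstk1 and Gstt3. Gstp3 and Gstm7 met the level rule through SIGLEC12 alone and had to be higher there. Both are among the 10, and Gstp3 is also among the 6 and among the 5 largest differences. The median was 0.46. The sum over the 22 Gst genes was 411 and 470 TPM in Control and 601, 423 and 285 in SIGLEC12 (log2 ratio -0.077, exact permutation p = 0.8). Without Gsto1 it was 106.8 and 106.5 in Control and 145.9, 127.2 and 133.6 in SIGLEC12, which no longer overlapped (log2 ratio 0.34, exact permutation p = 0.1, the smallest possible). After rescaling, that ratio was -0.21 (exact permutation p = 0.3). The difference of Gsto1 itself was -0.28 ± 0.46 (adjusted p = 0.649) and that of Gsta4 -0.17 ± 0.29 (adjusted p = 0.669).

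The pi class, whose promoters are printed above, lay within 24 kb of chromosome 19 (chr19:4035407-4059569, GRCm38), and each of its 3 genes was listed under a pair of identifiers with equal values and counted once. Gstp1 was at 3.27 and 3.92 in Control and at 4.51, 4.39 and 4.63 in SIGLEC12. Gstp2 was at 1.63 and 2.65 in Control and at 2.95, 3.19 and 2.98 in SIGLEC12. Gstp3 was at 0.39 and 0.82 in Control and at 1.57, 1.33 and 1.89 in SIGLEC12. For Gstp1 and Gstp2 the SIGLEC12 tumors were above both Control tumors and Control replicate 1 was the lowest. Gstp3 had the same order, but it met the level rule through SIGLEC12 alone and had to be higher there. The differences were 0.92 ± 0.26 for Gstp1, 0.90 ± 0.31 for Gstp2 and 0.99 ± 0.23 for Gstp3, with adjusted p of 0.0976, 0.112 and 0.0974. After rescaling they were 0.40, 0.46 and 0.75, and without Control replicate 1 they were 0.59, 0.40 and 0.78. Gstp1 and Gstp2 share much transcript sequence, so their levels were not measured independently. Gstp3 shares 0.5% of its 31-base words with other genes of GENCODE M21. No word count compares a pi-class gene with its own second identifier, whose values were equal.

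The 6 mu-class genes, at chr3:107895821-108017973 of the same build, spread more widely. Gstm5 had the largest difference of the 49 members. It was at 1.62 and 2.37 in Control and at 2.91, 3.46 and 2.73 in SIGLEC12. The groups did not overlap, and the difference was 1.04 ± 0.31 (SE; unadjusted p = 0.0145, adjusted p = 0.101), 0.66 without Control replicate 1 and 0.60 after rescaling, where the groups overlapped. At the other end of the same cluster, Gstm1 differed by 0.091, Gstm3 by 0.050 and Gstm2 by 0.37, all with overlap. Gstm6 and Gstm7 differed by 0.38 and 0.54 without overlap, Gstm7 having met the level rule through SIGLEC12 alone.

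Of the alpha class, Gsta1 was at 2.13 and 2.70 in Control and at 2.58, 2.64 and 4.09 in SIGLEC12, so 1 SIGLEC12 tumor accounts for its difference of 0.69 ± 0.49, which was 0.19 without that tumor. Gsta3 stood at 0.94 in Control replicate 1 and between 1.96 and 2.04 in the other 4 tumors, and its difference was 0.58, and 0.067 without Control replicate 1. Gstk1, the kappa form of mitochondria and peroxisomes, was at 0.76 and 1.35 in Control and at 1.65, 1.76 and 1.80 in SIGLEC12, a difference of 0.68 ± 0.21 (adjusted p = 0.101). Gstz1, an enzyme of tyrosine breakdown, differed by 0.34 ± 0.17, and the theta genes Gstt1, Gstt2 and Gstt3 by 0.26, 0.35 and 0.54.

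The differences of neighbouring members ranged widely in some clusters. With gaps of up to 500 kb joined, 34 members fell into 11 clusters. The 3 Gstp genes differed by 0.90 to 0.99 and all lay above, and the 6 Gstm genes by 0.050 to 1.04 with 3 above. The 5 Cyp4f genes differed by -0.66 to 0.84 with 1 above, and the 3 Ugt1a genes by -0.31 to 0.34 with 0 above. Over all genes, 54.1% lay above. Gstp3 and Gstm7 met the level rule through SIGLEC12 alone and had to be higher there. Whether neighbours differed from each other was not tested, and the Ugt1a genes share later exons.

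How far a level belongs to its gene alone was read from the transcripts. Of the 49 members, 14 shared at least 25% of their 31-base words with some other gene in GENCODE M21, which makes the division of reads among them uncertain. Gsta1 shared 92.9%, most of it with Gm3776, and Cyp2c68 62.0%, Gstp2 60.3%, Ugt1a1 58.5%, Ugt1a7c 55.7% and Cyp2a5 54.6%. The 9 that shared none were Gsto1, Gsta4, Gstm5, Cyp2f2, Cyp27a1, Cyp39a1, Sult1b1, Sult1d1 and Sult2b1. Gstm5 and Sult1b1, 2 of the 5 largest differences, are thus free of shared words.

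**Figure D5:**
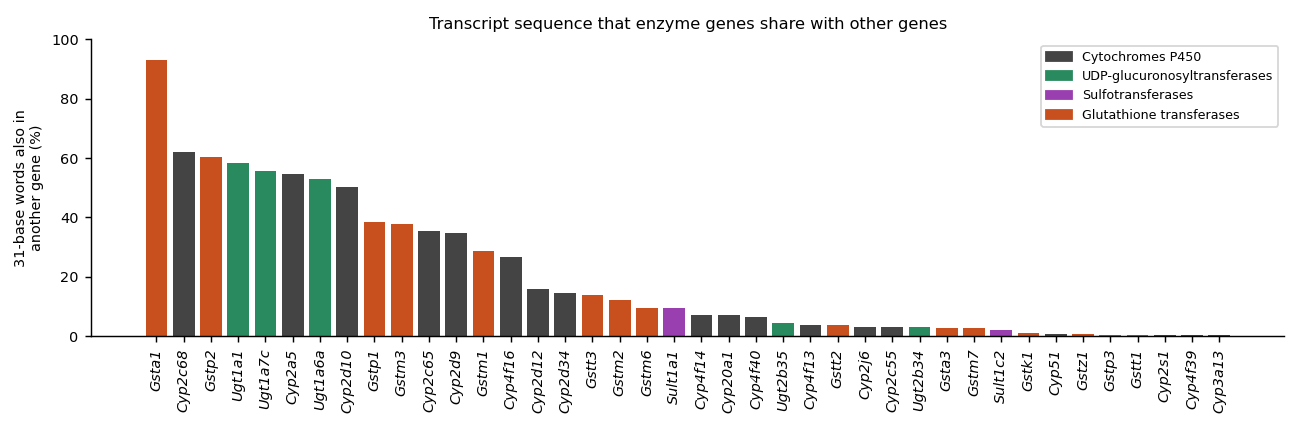
Percent of each member's 31-base transcript words that also occur in another gene of GENCODE M21, for the 40 members above 0, colored by family. Gsta1 stands at 92.9%, and the Ugt1a, Cyp2c, Cyp2d and pi-class genes fill much of the upper range.

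The genes around the enzymes are read against the same shares of all genes, 87.2% higher, 54.1% above without overlap and 33.4% higher by the unadjusted limit. Of 9 tested sensors and regulators, 8 had a positive difference (88.9%), 3 lay above without overlap (33.3%) and 1 (11.1%), Nr1i2, which encodes PXR, had an unadjusted p of at most 0.05 (0.66). Nfe2l2, which encodes NRF2, was at 2.99 and 3.27 in Control and at 3.46, 3.45 and 3.71 in SIGLEC12, and Hnf4a, a regulator of enterocyte genes, was at 3.52 and 4.70 in Control and at 4.90, 4.59 and 5.21 in SIGLEC12. After rescaling, Nfe2l2 went from 0.41 to -0.086. Of 5 tested electron donors of P450, 4 reached an unadjusted p of 0.05 and lay above (80.0%), with Cyb5a at 0.78 ± 0.24, while Por, the reductase that feeds microsomal P450, differed by 0.087 ± 0.25.

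Of 23 other oxidising, reducing and hydrolysing enzymes, 8 had an unadjusted p of at most 0.05 on the higher side (34.8%) and 10 lay above (43.5%). The aldo-keto reductases Akr1a1 (1.12 ± 0.23) and Akr1c13 (1.02 ± 0.27) were past 2-fold, while the alcohol dehydrogenase Adh1 and the aldehyde dehydrogenase Aldh2 differed by 0.55 and 0.30 with overlap. Of 7 other conjugating enzymes, 5 had such a p and lay above (71.4%), led by the microsomal glutathione transferases. Mgst2 was at 2.05 and 3.55 in Control and at 4.09, 4.57 and 4.42 in SIGLEC12, a difference of 1.56 ± 0.44, Mgst3 differed by 1.29 ± 0.33 and Mgst1 by 0.97 ± 0.33. Adjusted p was 0.0976 for Mgst2, 0.0974 for Mgst3 and 0.108 for Mgst1.

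Of 8 genes that supply cofactors, 4 had an unadjusted p of at most 0.05 on the higher side (50.0%) and 5 lay above (62.5%). Glutathione reductase Gsr and glutathione synthetase Gss differed by 1.12 ± 0.37 and 1.08 ± 0.31, and Gclm, a subunit of glutamate-cysteine ligase, by 0.41 ± 0.19. Of 7 transporters, 2 lay above (28.6%) and 1 had such a p (14.3%), Slc35b2, which carries the sulfate donor into the Golgi, at 1.10 ± 0.20. The exporters Abcb1a and Abcc3 differed by -0.25 ± 0.36 and 0.48 ± 0.30. In these 6 lists 0 genes had an adjusted p under 0.05 by limma and 0 were lower by the unadjusted limit, and the list medians of 0.31 to 0.81 became -0.086 to 0.41 after rescaling.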

How the data were processed

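RNA-Seq of 2 Control and 3 SIGLEC12 colon tumors was deposited as 1 table of log2(TPM + 1) for 52143 mouse genes, and the values were checked to sum, as TPM over every annotated RNA, to nearly the same total in each tumor. The submitters' processing notes name kallisto 0.45.0 and GRCm38, while the study's methods name a human reference. The labels name a stranded total RNA kit and the methods an mRNA kit, and whether technical replicate libraries were averaged is not stated. TPM keeps no depth, so no counting interval is given.

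The members and the gene lists were chosen with earlier results of these data known. Genes with a TPM of at least 1 in at least 2 tumors (10338) were fitted with limma 3.58.1 in R 4.3.3 (lmFit, eBayes with trend) on log2(TPM + 1), a scale that compresses the change of low genes, with Benjamini-Hochberg adjustment and a threshold of 0.05 and 2-fold. Nothing says whether tumors were handled apart, so p-values measure the spread between these samples. The fit was tested on simulated data with no shift shared by all genes, in which 200 genes were changed by a log2 of 2. It recovered 72.5% of them. No member differed by that much, so the simulation does not show how the fit performs on differences of the size seen here. Family sums over all genes of a family were put to an exact two-sided permutation test with 10 divisions into 2 and 3 (smallest p 0.1). Members given with every tumor were, by rule, the 3 most abundant of each family and the 5 of largest non-overlapping difference each way; others were named after their values were seen. Alternatives were rescaling to the protein-coding total, median-ratio factors, sample quality weights and leaving out each tumor, a lower pseudocount (0.1), a stricter filter (5 TPM in 2 tumors) and none. Positions and transcripts are from GENCODE M21 (98.45% of gene identifiers matched), promoters from RefSeq. Protein sequences were not used here.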

Additional observations from a re-analysis of the deposited data

How the results depend on the processing

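No paired analysis was possible because replicate 4 is the sole number that both groups have. The limits are the sample number (2 against 3), an unknown depth, and a scale that depends on the share of non-coding RNA in each tumor. Directions of all 49 members held with a pseudocount of 0.1 and with no filter, and those of the 18 tested with a filter of 5 TPM held there. The cause of the changes below was not tested.

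The higher members past an unadjusted p of 0.05 and 2-fold, 1 in the report, numbered 7 with a pseudocount of 0.1, 0 after rescaling to the protein-coding total, 0 with median-ratio factors and 0 to 11 when 1 tumor was left out, and the lower ones 0 to 1. With 1 tumor left out, 0 to 9 members and 0 to 1059 of all genes passed the adjusted threshold with 2-fold, the highest counts without Control replicate 4. That fit, and the one without Control replicate 1, keep a single Control tumor. The members that passed without Control replicate 4 include Gstp3, which met the level rule through SIGLEC12 alone. The share of all genes higher by the unadjusted limit and 2-fold was 3.97% in the report. It is not given here for the changed settings. The counts of 7 and of 0 to 11 members therefore do not show whether members changed more often than all genes. The smallest adjusted p of a member, 0.0974 in the report, ran from 0.0414 without Control replicate 4 to 0.457 after rescaling. The median over the members was 0.70 with a pseudocount of 0.1, 0.14 rescaled, 0.13 with median-ratio factors and 0.23 to 0.73 with 1 tumor left out.

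Rescaled, and in brackets with median-ratio factors, the family medians were -0.11 (-0.12) for Ugt, 0.19 (0.18) for Sult and 0.12 (0.12) for Gst, and the log2 ratio of the family sum was -0.069 (-0.079) for Cyp and -0.042 (-0.053) for Ugt. With 1 tumor left out, the ratio of the Cyp sum lay between -0.028 and 0.998 and that of the Gst sum between -0.34 and 0.20. The same rescaling turned 10 members, again with median-ratio factors in brackets: Cyp2f2 -0.35 (-0.36), Cyp2d12 -0.031 (-0.029), Cyp3a13 -0.15 (-0.16), Ugt1a1 -0.12 (-0.13), Ugt1a7c -0.11 (-0.12), Sult1a1 -0.24 (-0.25), Gstm1 -0.43 (-0.44), Gstm2 -0.13 (-0.14), Gstm3 -0.27 (-0.27) and Gstz1 -0.015 (-0.022). With sample quality weights, Cyp2c55 became 0.38 and Gsto1 0.0069.

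With 1 tumor left out, the differences that took both signs lay in these ranges: Cyp2f2 -0.64 to 0.99, Cyp2c55 -0.62 to 0.53, Cyp27a1 -0.12 to 1.09, Cyp2a5 -0.32 to 0.91, Cyp2d12 -0.11 to 0.46, Cyp2d34 -0.0034 to 1.19, Cyp3a13 -0.048 to 0.54, Cyp4f39 -1.50 to 0.18, Sult1a1 -0.047 to 0.54, Sult2b1 -0.29 to 0.041, Gsto1 -0.65 to 0.14, Gsta4 -0.44 to 0.11, Gstm1 -0.100 to 0.22, Gstm3 -0.15 to 0.26 and Gstt2 -0.031 to 0.73. The other 34 members kept their sign without each tumor in turn.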
